A study of Arabidopsis thaliana with 8 samples.

Results

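Of the 3439 features on the array, 98 gave an intensity above 0 on all 4 wild type (WT) arrays and were listed at exactly 0 on all 4 arrays of the psah2k double mutant of Arabidopsis thaliana. They made up 2.85% of all features and 3.35% of the 2929 features above 0 on all 4 WT arrays. Membership was read from the values themselves, so the difference between the genotypes at these features is a description and was given no test. Of the 98 members, 15 were assigned to 1 gene in the platform annotation, 23 to several genes and 60 had no annotation there. The annotated members named 65 different genes.

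RNA from 4 WT samples and 4 psah2k samples, all of ecotype Columbia 0 and numbered 1 to 4 in each genotype, was measured on 1-channel arrays, 1 array a sample. The labels describe psah2k as a double mutant lacking photosystem I proteins and name them in different ways, as subunits H and K in the line name and as PSI-E1 and PSI-K in the description. The sources used here do not state the organ, the age, the growth conditions, the mutagen or the number of lines, nor whether the samples of a genotype are separate plants. No feature was annotated with PSAE-1, PSAE-2, PSAH-1, PSAH2 or PSAK, so the genotype could not be checked at the targeted transcripts.

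Photosystem I sits in the thylakoid membrane, takes electrons from plastocyanin and hands them to ferredoxin. Its E subunit helps ferredoxin to dock, its H subunit is needed where light-harvesting complex II attaches, and its K subunit lies beside the photosystem I antenna. The state of the photosynthetic electron transport chain is known to alter transcript levels of many nuclear genes, in and outside photosynthesis.

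An intensity of 0 covered a different share of the features in each genotype. On a WT array 13.0% to 13.7% of the features were at 0, and on a psah2k array 21.5% to 29.5%. With the 98 members left out, 458.5 ± 11.5 features were at 0 on a WT array and 776.25 ± 139 on a psah2k array (SD, n = 4 each). The exact permutation test over arrays, two-sided, gave p = 0.0286, and no smaller p can be had with 4 arrays a group. With the members counted in, numbers 1 and 2 of psah2k had 972 and 1014 features at 0, and numbers 3 and 4 had 772 and 739. Without the members the counts on psah2k 1 to 4 were 874, 916, 674 and 641. Array medians were 0.304 to 0.336 in WT and 0.0506 to 0.0582 in psah2k, on a linear scale with a ceiling of 100. The part of this shift in the pattern of the members was not tested. The samples are of whole RNA, so fewer cells expressing a gene and less RNA per cell cannot be told apart.

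The members were mostly dim. Their mean WT intensities ran from 0.0324 to 1.46 with a median of 0.230, against a median of 0.389 over all features above 0 on every WT array. Within an array, the percentile rank of a feature is the share of all features at or below it. The median member stood at rank 37.8 on the WT arrays, and the medians on WT arrays 1 to 4 were 38.3, 36.7, 39.4 and 37.2. Of the 98 members, 32 lay above rank 50, 7 above rank 75 and 1 above rank 90.

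Among all features above 0 on every WT array, the share at 0 on all 4 psah2k arrays was lower among brighter features, though not at every step. It was 10.2% of the 167 features with a mean WT rank of 10 to 20, 3.65% of the 356 features between ranks 50 and 60, and 0.292% of the 342 features above rank 90. The share above 0 on every psah2k array ran the other way, from 25.7% in the lowest of these bins to 95.9% in the highest. Over the whole array, features dim in WT were thus more often at 0 in psah2k, and bright features that met the rule were few.

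**Figure D1:**
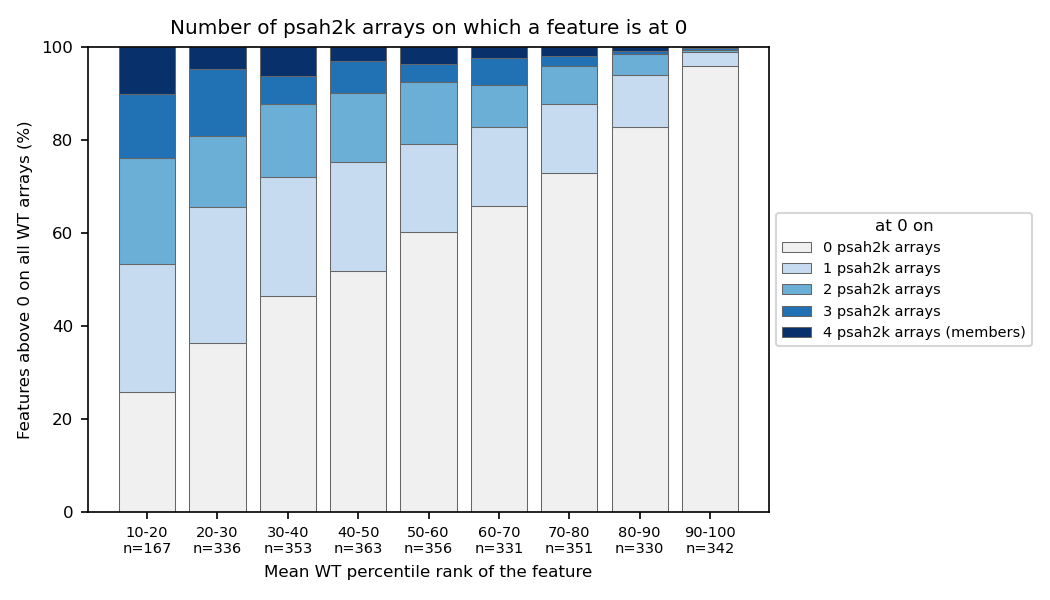
Features above 0 on all 4 WT arrays, grouped by their mean WT percentile rank (x axis), with the percentage at 0 on 0, 1, 2, 3 or 4 psah2k arrays (y axis, stacked). The darkest part, which holds the 98 members, shrinks from 10.2% in the dimmest bin to 0.292% in the brightest.

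The brightest member with 1 gene was AT3G11150, which encodes a protein of the 2-oxoglutarate and iron dependent oxygenase superfamily. Its WT intensities were 0.837, 0.786, 0.622 and 0.660 on arrays 1 to 4, a mean of 0.726 ± 0.102 (SD, n = 4) at rank 79.2 ± 2.41. It was the 1 single gene above rank 75, and every psah2k array listed it at 0. AT3G52550 followed with 0.531, 0.585, 0.559 and 0.496, a mean of 0.543 ± 0.0383 at rank 69.9 ± 2.43. Its 4 WT arrays were close to each other, with a coefficient of variation of 7.06%, the lowest of the 15 single genes.

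Members are grouped by family here for reading only, since the families were not counted over all features. Families linked to stress gave 2 single-gene members. AT4G05070, of the wound-responsive protein family, read 0.404, 0.295, 0.430 and 0.336 on the WT arrays, a mean of 0.366 ± 0.0620 at rank 55.0. AT1G05340, a small cysteine-rich transmembrane module protein of the CYSTM family, read 0.238, 0.191, 0.228 and 0.237 with a mean of 0.223 ± 0.0224 at rank 37.2. The first lay above the middle of the WT arrays and the second below it. Taken with the oxygenase gene AT3G11150, which was grouped beside them, the features covered mean WT intensities from 0.223 to 0.726.

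Features of 2 transcription factor families were among the members. AT1G44830, an AP2/ERF family transcription factor, read 0.490, 0.620, 0.298 and 0.354 on the WT arrays, a mean of 0.441 ± 0.145 at rank 60.7. Its WT arrays were spread widely, with numbers 1 and 2 above numbers 3 and 4. The feature shared by AGL54, AGL53 and AGL93, of the MADS box family, was dimmer at 0.135 ± 0.0263 and rank 24.7.

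CHL, the chloroplastic lipocalin, is known to protect thylakoid membranes against lipid peroxidation and to take part in a slow, sustained form of antenna quenching. Its WT intensities were 0.177, 0.212, 0.228 and 0.198, a mean of 0.204 ± 0.0216 at rank 34.3, and all 4 psah2k arrays listed it at 0. The 4 WT arrays lay close together, so the WT signal was dim but repeatable. Another signal of plastid proteins was feature 4384, shared by AT4G25370 and AT4G12060, the ClpT accessory subunits of the plastid Clp protease. It read 0.698, 0.713, 0.565 and 0.535, a mean of 0.628 ± 0.0911 at rank 74.8, and was among the brightest annotated members.

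Protein folding and turnover families gave 4 features. AT5G19370, with rhodanese and parvulin-type peptidyl-prolyl isomerase domains, read 0.244, 0.252, 0.302 and 0.300 on the WT arrays (mean 0.275 ± 0.0306, rank 44.0). AT1G35340, which carries the N-terminal domain of LON proteases, read 0.242, 0.158, 0.175 and 0.133 (mean 0.177 ± 0.0467, rank 30.3). A second feature of LON-domain genes, shared by AT1G75460, AT1G19740 and AT1G18660, stood near it at 0.187 ± 0.0229 and rank 32.0. AT3G26730, of the RING/U-box superfamily, was the dimmest of all 98 members with 0.0287, 0.0283, 0.0575 and 0.0150, a mean of 0.0324 at rank 14.9. The features of this group thus ranged from the middle of the WT arrays to just above their features at 0.

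AT4G21770, of the pseudouridine synthase family that modifies uridines in RNA, was the least repeatable of the 15. It read 0.372 on WT 1 and 0.327 on WT 3, but 0.0405 on WT 2 and 0.0833 on WT 4, a mean of 0.206 ± 0.168 with a coefficient of variation of 81.7%. AT4G05070, AT4G05030, AT1G35340 and AT3G26730 also read higher on WT 1 and WT 3 than on WT 2 and WT 4, by smaller margins. AT5G48130, of the NPH3 family named for a phototropism protein, read 0.194, 0.188, 0.144 and 0.201 (mean 0.181 ± 0.0257, rank 30.9).

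The other single genes were AT1G68430 at 0.257 ± 0.0223, AT4G02800 at 0.129 ± 0.0317, AT1G50770 at 0.0538 ± 0.0160 and AT4G05030 at 0.0388 ± 0.0197 (SD, n = 4 WT arrays). AT1G50770, AT4G05030 and AT3G26730 stood at ranks 14.9 to 16.2, just above the features listed at 0. For these 3 the step from WT to psah2k is small on the deposited scale, and a value of 0 is close to the WT values. Of the 15 genes, 4 lay above rank 50 on the WT arrays, 11 above rank 25, and 7 had a coefficient of variation of at most 15%.

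**Figure D2:**
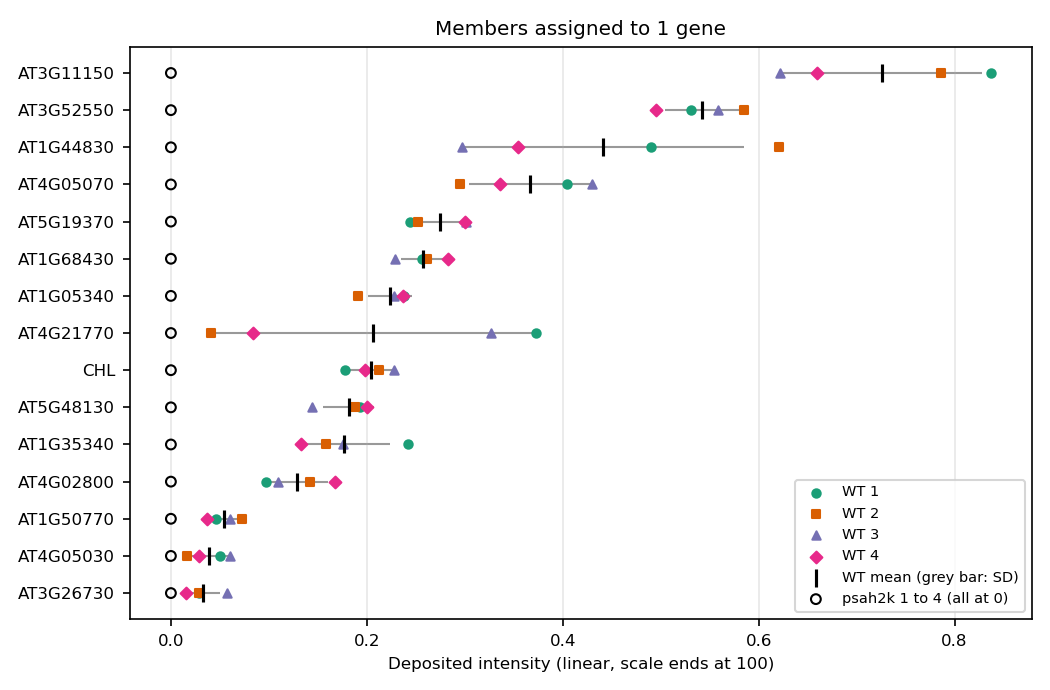
Deposited intensity (x axis, linear) of the 15 members assigned to 1 gene (y axis, ordered by WT mean), with a coloured point for each WT array, a black tick for the WT mean, a grey bar for the SD (n = 4) and an open circle for the 4 psah2k arrays, all at 0. AT3G11150 is highest at 0.726 and AT4G21770 has the widest spread, from 0.0405 to 0.372.

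A feature with several genes gives a signal of related sequences, and none of its genes can be named as the source. Of the 23 such members, 17 had 2 genes and 6 had 3. The brightest, feature 911, was shared by AT5G22400 and AT3G11490. It read 0.702, 0.599, 0.694 and 0.541 on the WT arrays, a mean of 0.634 ± 0.0777 at rank 75.1. Feature 2719, shared by the serine-rich proteins AT5G55980 and AT3G13227, had a mean of 0.539 ± 0.0567, and feature 4413, shared by the AAA-type ATPases AT4G36580 and AT2G18330, of 0.528 ± 0.0560. These 3 and the ClpT signal were the only shared members with a mean above 0.5 in WT.

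The gene pair AT1G72880 and AT4G14930, of the SurE family of phosphatases, was represented by 2 features, and both were members. Feature 611 read 0.397, 0.398, 0.372 and 0.423 on the WT arrays, a mean of 0.397 ± 0.0209 at rank 58.5. Feature 313 read 0.166, 0.0984, 0.0871 and 0.0393, a mean of 0.0978 ± 0.0523 at rank 20.6. It was the 1 pair of members with the same genes, and the features differed in WT level while both were at 0 in psah2k. Feature 4264, shared by AT1G26160 and AT2G23820 of the HD-domain phosphohydrolases, was another phosphatase signal, at 0.180 ± 0.0161.

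Enzymes of the cell wall and extracellular matrix gave 3 shared signals. Feature 4603, shared by MMP and AT1G24140, which encode matrix metalloproteinases, read 0.371, 0.384, 0.395 and 0.379, a mean of 0.382 ± 0.00997 at rank 56.9. With a coefficient of variation of 2.61% it was the most repeatable of all 98 members. Feature 2650, shared by the pectin methylesterase genes PME61 and ATPMEPCRD, had a mean of 0.273 ± 0.0212. Feature 2890, shared by the endoglucanase genes GH9B18 and GH9B17 and by AT3G42155, was dim at 0.0631 ± 0.0173.

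Among the other shared signals, feature 1562 of AT1G20065 and AT1G20070 had a WT mean of 0.342 ± 0.0338. Feature 3203 of AT4G31510 and AT2G24550 followed at 0.330 ± 0.0362 and feature 2657 of the major facilitator family transporters AT1G64890 and AT5G54860 at 0.310 ± 0.0154. Feature 1652 of AT1G71970 and AT1G22680 was at 0.278 ± 0.0452 and feature 4400 of AT4G29870 and AT2G19340 at 0.245 ± 0.0329. Feature 4369, shared by the protein kinases AT1G69790 and AT1G26970, was at 0.242 ± 0.0528, and feature 2690, of the OB-fold proteins AT1G03810, AT4G28440 and AT2G33845, at 0.230 ± 0.0317. All of these stood between ranks 37.8 and 52.5 on the WT arrays, near the middle of the array or below it.

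The remaining shared members lay at or below rank 23.7. They were feature 136 (AT1G52780 and AT4G21700, 0.128), feature 3352 (AT2G10020, AT2G09990 and AT2G09970, 0.0981), feature 2763 (AT1G80040, AT5G32440 and AT5G02510, 0.0848) and feature 3463 (AT1G10890 and AT5G13340, 0.0725). Feature 3463 read only 0.00451 on WT 4, so that it met the rule there by a small margin. Over the 23 shared members 15 had a coefficient of variation of at most 15% among the WT arrays and 3 had more than 50%.

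**Figure D3:**
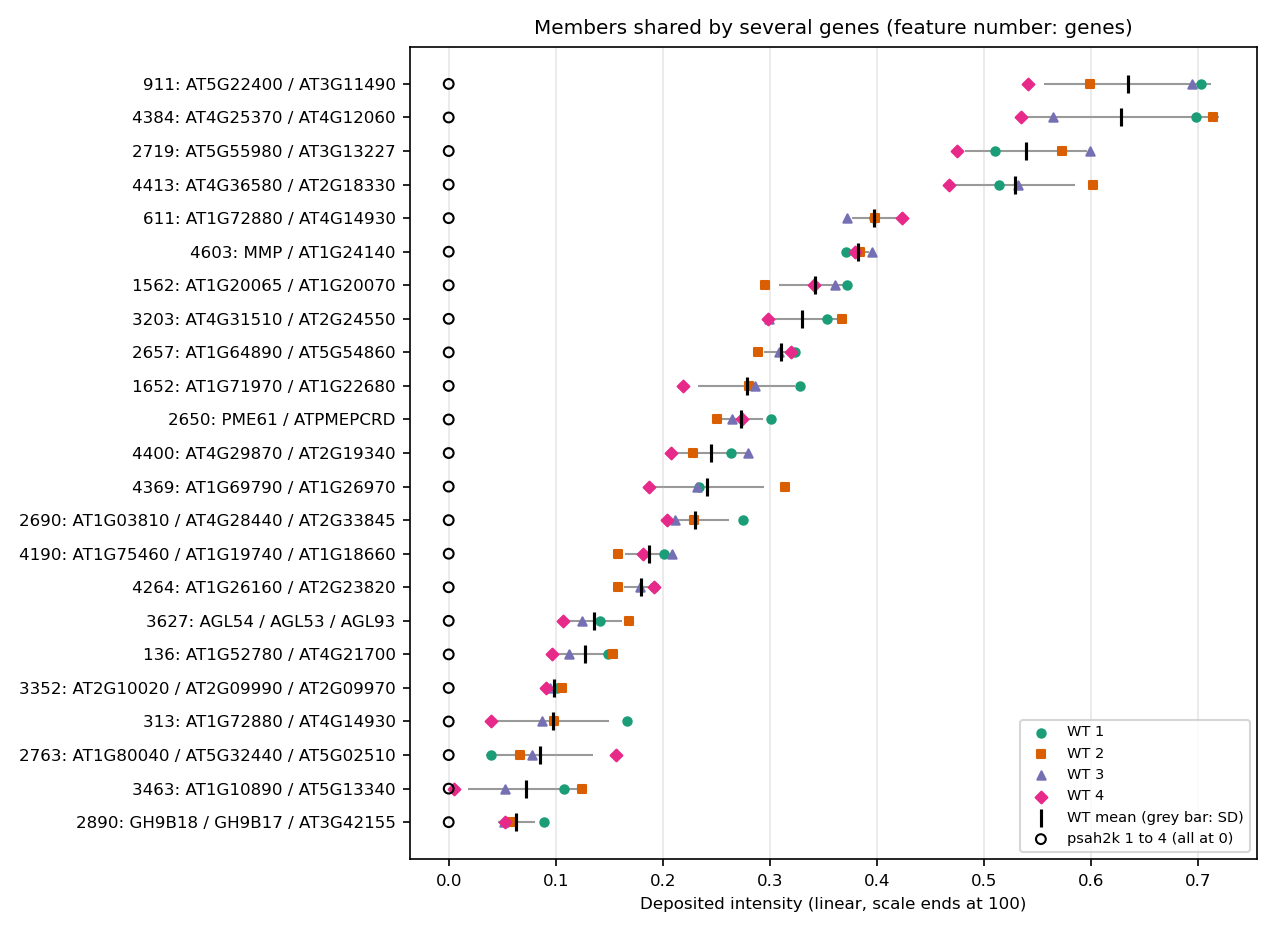
Deposited intensity (x axis, linear) of the 23 members shared by several genes (y axis, feature number and genes, ordered by WT mean), with a coloured point for each WT array, a black tick for the WT mean, a grey bar for the SD (n = 4) and an open circle for the 4 psah2k arrays, all at 0. Features 611 and 313 carry the same gene pair at WT means of 0.397 and 0.0978.

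The 4 brightest members were without annotation, and AT3G11150 at 0.726 came next. Feature 2711 read 1.46, 1.50, 1.46 and 1.40 on the WT arrays, a mean of 1.46 ± 0.0408 at rank 91.9, and was the 1 member above rank 90. Feature 4371 had a mean of 0.889 ± 0.0306, feature 2666 of 0.766 ± 0.0455, feature 2723 of 0.757 ± 0.0433 and feature 51 of 0.703 ± 0.178. Their sequences and genes are not named here. Members without annotation had a median WT intensity of 0.230, against 0.206 for members with 1 gene and 0.245 for those with several genes.

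The annotation did not set the members far apart from the array. Features with 1 gene were 15.3% of the members and 20.1% of all features, those with several genes 23.5% and 25.3%, and those without annotation 61.2% and 54.6%. Put the other way, 2.17% of all single-gene features, 2.64% of shared features and 3.20% of features without annotation were members, against the 2.85% of all features.

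WT arrays ranked the members in similar order. Spearman's rank correlation between WT arrays ran from 0.891 to 0.950 over the 98 members and from 0.952 to 0.982 over the 2929 features above 0 on all WT arrays. These points share arrays and a common scale, and features are not independent replicates. Over the 2929 features WT 1 with WT 2 gave 0.982 and WT 3 with WT 4 gave 0.976. The other pairs gave 0.952 to 0.958. Over the members WT 1 with WT 3 was highest, at 0.950. Array medians were 0.333 and 0.336 for WT 1 and WT 2, and 0.304 and 0.305 for WT 3 and WT 4. By median, psah2k 1 and 2 also stood apart from psah2k 3 and 4, at 0.0527 and 0.0506 against 0.0560 and 0.0582. There numbers 1 and 2 were the lower ones. The main tests did not model such a split, and the replicate block takes up only differences that both genotypes share. Its cause was not tested. The coefficient of variation among WT arrays had a median of 15.1% in the members and 11.4% over the 2929 features. Between ranks 25 and 50 it was 13.5% in 37 members and 12.8% in 853 other features, and above rank 50 it was 10.6% in 32 members and 9.74% in 1678 others. Between ranks 10 and 25 it was 27.4% in 29 members and 22.1% in 300 others.

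The edge of the rule was not sharp. Besides the 98 members, 160 features detected on every WT array were at 0 on 3 of the 4 psah2k arrays, and 46 of them had 1 gene. The array above 0 was psah2k 1 for 27 of them, psah2k 2 for 31, psah2k 3 for 50 and psah2k 4 for 52. The median of that single value was 0.0305, below the median of each psah2k array. Its highest values were 0.109, 0.743, 0.572 and 0.449 on psah2k 1 to 4, where the upper quartiles of all features were 0.182 to 0.194. The brightest of these with 1 gene were AT1G22040, at 0.763 ± 0.0326 in WT and 0.0919 on psah2k 1, AT2G03200, at 0.720 ± 0.115 and 0.0413 on psah2k 4, and AT1G62010, at 0.647 ± 0.0328 and 0.0529 on psah2k 2. Inside the rule the dimmest members were AT3G26730 at 0.0324, feature 1726 at 0.0361 and feature 2538 at 0.0363 in WT.

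Without psah2k 3 or without psah2k 4 the rule took 148 and 150 features. With the WT arrays required to be above the 25th percentile of their positive values, 47 members remained, 6 of them with 1 gene. In the opposite direction, 9 features, 0.262% of all, were detected on every psah2k array and at 0 on every WT array. Only features at 0 on every WT array could meet this reverse rule, and most features were above 0 on every WT array. The share of all features is thus no measure of how uneven the directions were. None of the 9 had 1 gene, and their median psah2k intensity was 0.0428.

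A further 16 features of the array, outside the rule, named a gene that a member also names, 6 of them with exactly the same genes as their member. These partner features show how far a member's pattern held in another probe for the same gene or family. Of the 16, 1 was at 0 on all 8 arrays and the other 15 were above 0 on all WT arrays. Being outside the rule, those 15 had at least 1 psah2k array above 0 by construction. On the psah2k arrays 4 of them were at 0 on 3 arrays, 2 on 1 array and 9 on none. In 13 of the 16 every psah2k array lay below every WT array, where 64.8% of all features (2227 of 3439) did so. Only features above 0 on all WT arrays can do so, as 15 of the 16 partners and 2929 of all features were. The 2227 include the 98 members, which do so by the rule.

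Close partners of the member pattern were seen for 4 features. Feature 4607, which names AGL54 alone, read 0.553, 0.483, 0.508 and 0.462 on the WT arrays and 0, 0, 0.0266 and 0 on the psah2k arrays. Feature 3081, of the phosphohydrolase pair AT1G26160 and AT2G23820, read 0.444, 0.419, 0.395 and 0.456 in WT and 0, 0, 0 and 0.0206 in psah2k. Feature 3160 of GH9B18, GH9B17 and GH9B16 was at 0.356 ± 0.0626 in WT and above 0 on psah2k 3 alone, at 0.0754. Feature 4269, with AT5G22400 and AT3G11490 among its 4 genes, was at 0.159 ± 0.0233 in WT and above 0 on psah2k 4 alone, at 0.0509. Each of the 4 missed the rule by a single psah2k array, and with values of 0 taken as missing they did not enter limma's test. With values of 0 set to an array's smallest positive value, limma's adjusted p was 0.0157 for feature 3081, 0.0212 for feature 4607, 0.0566 for feature 3160 and 0.232 for feature 4269. In that fit 8 of the 16 partners passed, 5 as higher and 3 as lower. Over all 3439 features of that fit 1144 passed, 729 as higher and 415 as lower. Feature 222, at 0 on all 8 arrays, had a log2 fold change of 1.35 in it (limma adjusted p = 0.180). Values of 0 alone can thus give a fold change in that fit.

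The 11 partners with at least 3 values in each genotype entered limma's test of psah2k minus WT on quantile-normalized log2 values, with Benjamini-Hochberg adjustment over all 2353 features tested. Of these features, 53.0% passed the threshold of 0.05, 26.6% as lower and 26.3% as higher in psah2k. Of the 11 partners 2 passed as lower, 4 as higher and 5 did not pass. On the deposited scale 9 partners were lower and 0 higher, beside 1718 lower and 172 higher among all 2353 features. With median centring 1 partner was lower and 4 higher, beside 396 lower and 817 higher among all. Upper quartile centring gave 2 lower and 2 higher partners, beside 790 lower and 567 higher among all. The partner counts under each scaling were not tested against those of all features. On quantile-normalized values the 11 partners had a median log2 fold change of −0.09, beside −0.12 for all features tested. The latter median was −1.77 on the deposited scale, 0.18 with arrays centred on their median and −0.53 after centring on their upper quartile, so a direction can turn with the scaling.

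Feature 651, which names the OB-fold gene AT1G03810 alone, read 0.537, 0.539, 0.501 and 0.532 on the WT arrays and 0.00360, 0.00889, 0 and 0.0353 on the psah2k arrays. Its log2 fold change was −3.31 (SE 0.60, limma adjusted p = 0.00375) with psah2k 3 left out as missing, and it fell under all 4 scalings. When zeros were raised to an array's lowest positive value its log2 fold change was −4.67 and it did not pass (limma adjusted p = 0.136). Feature 1425, shared by AT1G05340 and 4 other genes of the same cysteine-rich family, read 1.21, 1.27, 1.08 and 1.07 in WT and 0.0243, 0.0739, 0.167 and 0.206 in psah2k. After quantile normalization its log2 fold change was −2.40 (SE 0.55, limma adjusted p = 0.00769), and −1.76 after median centring, where it missed the threshold (limma adjusted p = 0.0614).

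Other partners kept a clear signal in psah2k. Feature 938, of AT1G71970 and AT1G22680 exactly as member 1652, read 1.68, 1.60, 1.31 and 1.19 in WT and 1.05, 0.741, 0.771 and 0.585 in psah2k. Every psah2k array was below every WT array, and the psah2k mean was 0.543 of the WT mean. The log2 fold change of feature 938 was −0.43 (limma adjusted p = 0.0847), with −0.90 as deposited (adjusted p = 0.00581) and 1.04 after median centring (adjusted p = 0.00232). Feature 3431, of the ClpT pair AT4G25370 and AT4G12060 exactly as member 4384, read 0.139, 0.174, 0.165 and 0.172 in WT and 0.0594, 0.172, 0.0302 and 0.157 in psah2k. Here psah2k 2 and psah2k 4 lay within the WT range. It was called higher after quantile normalization (log2 1.34, limma adjusted p = 0.0361), yet had −0.95 as deposited (adjusted p = 0.138), and missed the threshold without psah2k 2, without psah2k 4 or without any single WT array. For both gene pairs the member was at 0 on all psah2k arrays while a feature of the same annotation was not.

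The call of feature 3730, of AT2G10020, AT2G09990 and AT2G09970 as in member 3352, turned in the same way. It was at 0.342 ± 0.00628 in WT and 0.159 ± 0.0457 in psah2k, with 0.69 on the quantile-normalized log2 scale (limma adjusted p = 0.0361) and −1.16 as deposited (adjusted p = 0.00325). It missed the threshold without any single WT array and without psah2k 2, 3 or 4. Feature 1471, of 3 transporter genes including AT1G64890, read 0.237, 0.271, 0.302 and 0.263 in WT and 0.145, 0.203, 0.140 and 0.139 in psah2k. It was called higher after quantile normalization (log2 1.16, limma adjusted p = 0.000803) and lower as deposited (log2 −0.79, adjusted p = 0.00384). Feature 1859, of AT1G20065 and AT1G20060, was dim in both genotypes, at 0.0496 ± 0.0123 and 0.0639 ± 0.0137, and was called higher (log2 3.21, limma adjusted p = 3.70e-05) but not as deposited (log2 0.38, adjusted p = 0.207).

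The other 4 tested partners did not pass after quantile normalization. Feature 3124, of the LON-domain genes AT1G75460 and AT1G19740, read 0.452, 0.455, 0.439 and 0.449 in WT and 0.0303, 0.150, 0.222 and 0.207 in psah2k (log2 −0.09, limma adjusted p = 0.897). Feature 659 of AT1G80040 and AT5G32440 was at 0.177 ± 0.0133 in WT and 0.0604 ± 0.0306 in psah2k (log2 0.67, limma adjusted p = 0.116). Feature 212, of AT1G10890 and AT5G13340, read 0.412, 0.386, 0.103 and 0.102 in WT and 0.0187, 0.000476, 0.0576 and 0.00339 in psah2k (log2 −2.11, limma adjusted p = 0.183). Feature 4201, which names AT1G68430 and 2 other genes, was at 0.592 ± 0.0534 in WT and 0.431, 0, 0.143 and 0.0622 in psah2k (log2 −0.33, limma adjusted p = 0.553). As deposited all 4 passed as lower in psah2k. The last of the 16, feature 222 of the kinases AT1G69790 and AT1G26970, was at 0 on every array of both genotypes, while member 4369 of the same genes was at 0.242 ± 0.0528 in WT.

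**Figure D4:**
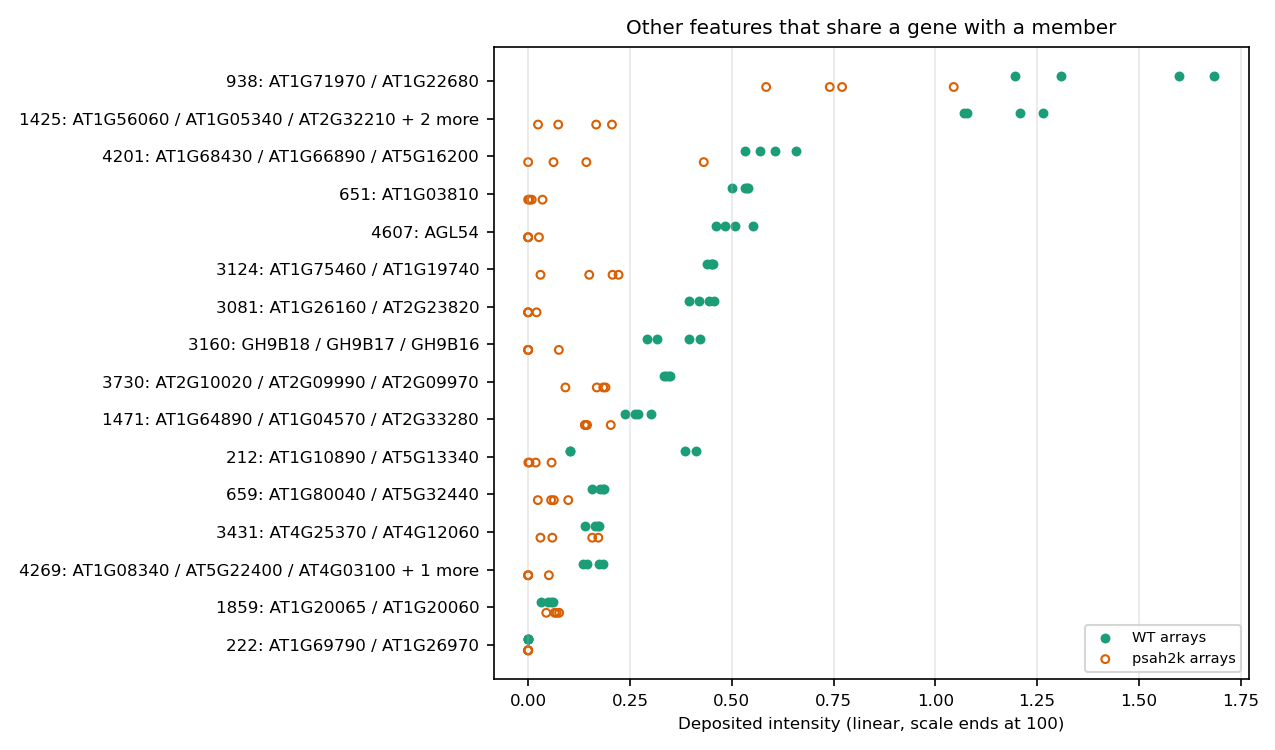
Deposited intensity (x axis, linear) of the 16 other features that share a gene with a member (y axis, feature number and genes, ordered by WT mean), with filled points for the 4 WT arrays and open points for the 4 psah2k arrays. Feature 938 stays between 0.585 and 1.05 in psah2k, whereas features 4607, 3081, 3160 and 4269 are at 0 on 3 psah2k arrays each.

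Of the 54 listed genes of both photosystems, their antennae and carbon fixation, 11 were covered by the array, by 10 features. None of these 10 features was a member, beside 2.85% over the array. With so few features, this does not set the genes apart from the array. Features 1517 (SBPASE) and 1872 (AT1G73110 and RCA) were at 0 on all WT arrays and could not meet the rule. Of the others only the shared LHCB4 feature, at rank 64.4, lay below rank 90. Above rank 90, 0.292% of the features above 0 on all WT arrays were members. The photosystem I antenna had no feature. Of the 8 listed features tested by limma, 4 passed as higher and 1 as lower after quantile normalization, beside 26.3% and 26.6% of all features tested. The counts were 4 higher and 0 lower on the deposited scale, 8 and 0 after median centring, and 7 and 0 after upper quartile centring. Over all 2353 features tested, 172 were higher and 1718 lower on the deposited scale. They were 817 and 396 after median centring, and 567 and 790 after upper quartile centring. PSAN, the 1 photosystem I gene covered, stood at rank 97.4 on the WT arrays, where few members lie. The marker lists of roots and non-green plastids and of seeds had no feature, so the organ could not be checked from them.

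Members were unevenly spread over the feature numbers of the deposited table, which run from 1 to 4607. In 46 blocks of 100 numbers, holding 60 to 85 features each, the median was 1 member, and 10 blocks had none. The block from 4301 to 4400 held 10 members among 76 features, the block from 4101 to 4200 held 8 of 75, and the blocks from 301 to 400 and from 2601 to 2700 held 6 each. Together these 4 blocks held 30.6% of the members and 8.64% of all features. Features at 0 on all WT arrays numbered 3 in the block from 4301 to 4400 and 13 in that from 4101 to 4200. The sources used here do not say what the numbers stand for on the array, and the part of the position in the pattern was not tested. ClpT feature 4384, kinase feature 4369 and AT4G05070 and AT4G05030 lay in the block with 10 members, and CHL lay outside these 4 blocks.

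**Figure D5:**
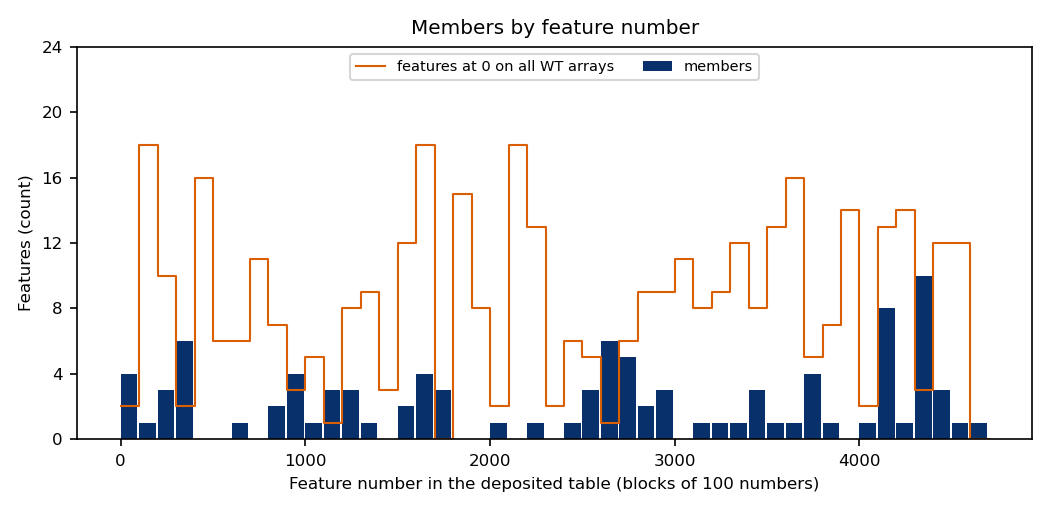
Number of features (y axis, count) in blocks of 100 consecutive feature numbers (x axis), with bars for the members and a line for features at 0 on all 4 WT arrays. The tallest bar, from 4301 to 4400, holds 10 members.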

How the data were processed

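The deposited table holds 1 intensity per feature and array on a linear scale from 0 to 100. The sources used here do not say how the authors subtracted background or scaled these intensities, so a value of 0 is reported as listed. Groups and numbers came from the sample titles. The number of arrays limits the precision, and p-values reflect only the spread of these samples, which could be technical. Names came from the platform annotation at GEO (1562 of 3439 features), updated by gene identifier with the TAIR10.1 RefSeq table, where all 65 genes of the members matched. No coordinates or sequences were used.

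The members and lists were chosen with earlier results of these data known. Named in the text are all members with 1 gene, the 15 brightest with several genes (the other 8 for completeness), the 5 brightest without annotation, the features that share a gene with a member, and those nearest the edge of the rule. The grouping by role was made after the members were known and gave no role to 16 annotated members. How often these families occur over all features was not counted, so the counts per family are descriptions only.

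Intensities were log2 transformed with 0 as missing, then quantile normalized. A feature needed 3 values in both genotypes, and 2353 features were tested with limma 3.58.1 in R 4.3.3 (lmFit, eBayes, two-sided, Benjamini-Hochberg, threshold 0.05). The fit was also run on simulated data without missing values or normalization, so that run did not check the handling of 0 or the scaling. Alternatives changed the rule's thresholds, the scaling, values of 0, the low-value filter and the replicate block, and left out each array. Figures used matplotlib 3.10.9.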

Additional observations from a re-analysis of the deposited data

Results flagged for a closer look

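Among 75 groups of 4 values examined for a single value far from the other 3, 5 stood out. The procedure picks about 1 in 20 groups by chance. The 43 members examined, on their WT values alone, gave none. In feature 1471 (AT1G64890, AT1G04570 and AT2G33280) psah2k 2 read 0.203 against 0.139 to 0.145 on the other psah2k arrays. In the other 4 cases a single psah2k array was above 0 and the other 3 were at 0, a pattern that always stands out by this measure, so the chance rate does not apply to them. Feature 3081 (AT1G26160 and AT2G23820) read 0.0206 on psah2k 4 and feature 4269 (with AT5G22400 and AT3G11490) 0.0509 on psah2k 4. Feature 3160 (GH9B18, GH9B17 and GH9B16) read 0.0754 on psah2k 3 and feature 4607 (AGL54) 0.0266 on psah2k 3.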

How the results depend on the processing

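The count of 98 members was 98 to 150 with 1 array left out and 132 with psah2k values up to the 5th percentile of positive values allowed. It was 47 with WT above the 25th percentile of positive values and 258 with 3 psah2k arrays at 0 enough. As alternatives chosen after seeing the data, psah2k 3 and 4 alone gave 191 and psah2k 1 and 2 alone 319. The median WT rank of 37.8 was 28.3 among features above 0 on an array. Outside the members, the excess of 317.75 features at 0 on a psah2k array was 271 to 363 with 1 array left out (exact permutation p = 0.0571, the smallest that 3 against 4 arrays allow). With the replicate block it was 317.75 (exact sign-flip p = 0.125, the smallest possible). Same-numbered arrays deviated together weakly (r = 0.0561 to 0.126), so the numbers were not taken to pair the samples. The replicate block gave 1087 calls against 1246 and 6 calls among the partners, as without it.

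Calls over all features were 1890 as deposited, 172 higher and 1718 lower, against 620 and 626. They were 817 and 396 after median centring, 567 and 790 after upper quartile centring, and 1025 to 1082 in all with 1 array left out. Calls among the partners were 3 to 6 with 1 array left out. The 3 were reached without psah2k 2 and without psah2k 4. As deposited, log2 fold changes turned to −1.71 (feature 659), −0.79 (1471), −0.95 (3431) and −1.16 (3730). After median centring they turned to 1.04 (938), 0.037 (3124) and 0.075 (4201), and after upper quartile centring to −0.48 (659) and 0.33 (938). With values of 0 at the smallest positive value they turned to 1.18 (212) and 0.24 (3124). With 1 array left out feature 3124 ranged from −0.36 to 0.45, above 0 without psah2k 1. The causes were not tested.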
